A study of Mus musculus with 5 samples.

Results

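T cell receptor alpha variable (Trav) genes were examined in 2 single-cell libraries of T cells taken from doxorubicin (DOX)-treated 4T1 mammary fat pad tumors. All features whose symbol starts with Trav were taken, which gave 128 genes of the 32285 features listed for each T cell library. Of these, 108 were annotated as functional variable (V) genes and 20 as pseudogenes. They fell into 23 families and 57 copy groups, a copy group being the genes that differ only in the letter d or n in their name (Trav13-4, Trav13d-4 and Trav13n-4) or in an added delta name.

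One library came from sensitive tumors, whose growth was inhibited by DOX, and one from resistant tumors, which grew on. The hosts were BALB/c mice, 12 weeks old per the labels, that carried tumors of 1 transplanted line, 4T1 marked with Thy1.1, and received 3 doses of DOX at 5 mg/kg, 3 days apart. Per the study's methods each library pooled T cells from 3 tumors, after magnetic depletion of non-T cells and of CD90.1-positive cancer cells. Each group therefore had 1 library: differences between mice could not be measured, no test between the groups was possible, and every interval below covers counting error only. The reference genome was C57BL/6J and the hosts were BALB/c, so reads may have been assigned to the wrong one of several close copies, and values of lettered genes and pseudogenes belong to the reference copies. How often this happened was not tested.

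The alpha chain of a T cell receptor is made by joining 1 Trav gene to 1 Traj (joining) gene and to the constant gene Trac, and it pairs with a beta chain built from a Trbv gene. The V gene supplies the first 2 antigen-contact loops and the start of the third, CDR3. The transcript therefore marks the rearrangement that a cell carries, and all descendants of that cell share it. A cell can carry a rearrangement on each chromosome. Trav genes whose names end in -dv can also join to delta segments, so they serve gamma-delta T cells too. A large stretch of the mouse cluster is repeated, and the repeated genes carry the letters d and n.

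The V exons that the results turn on are given first, from the GENCODE M21 annotation of GRCm38, all on the plus strand of chromosome 14. Exons of over 300 bases are shown by their last 300. In 102 of the 108 functional genes this exon held a cysteine codon followed by at most 15 bases (TGT in 92, TGC in 10), which opens CDR3. That codon is in capitals in the next 8 sequences. Trav16d-dv11 (chr14:53047522-53047821) and Trav3-3 (chr14:53666216-53666506) were leading genes in both libraries. Trav4-2 (chr14:53418595-53418873), Trav12-3 (chr14:53621946-53622245) and Trav13-1 (chr14:53545247-53545525) were used more in the sensitive library. Trav5-1 (chr14:52622792-52623082), Trav14-2 (chr14:53640926-53641225) and Trav21-dv12 (chr14:53876465-53876752) were used more in the resistant library.
Trav16d-dv11: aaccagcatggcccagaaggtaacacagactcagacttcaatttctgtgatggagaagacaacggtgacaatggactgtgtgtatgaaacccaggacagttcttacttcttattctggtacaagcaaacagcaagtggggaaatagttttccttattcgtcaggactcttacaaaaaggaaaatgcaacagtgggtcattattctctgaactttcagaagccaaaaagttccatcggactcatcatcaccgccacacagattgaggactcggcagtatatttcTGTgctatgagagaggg
Trav3-3: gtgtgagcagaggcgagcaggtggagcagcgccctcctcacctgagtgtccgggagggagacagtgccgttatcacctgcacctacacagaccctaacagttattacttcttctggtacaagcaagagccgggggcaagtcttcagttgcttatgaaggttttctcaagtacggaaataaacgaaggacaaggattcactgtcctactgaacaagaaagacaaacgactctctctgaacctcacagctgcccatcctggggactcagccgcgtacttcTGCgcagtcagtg
Trav4-2: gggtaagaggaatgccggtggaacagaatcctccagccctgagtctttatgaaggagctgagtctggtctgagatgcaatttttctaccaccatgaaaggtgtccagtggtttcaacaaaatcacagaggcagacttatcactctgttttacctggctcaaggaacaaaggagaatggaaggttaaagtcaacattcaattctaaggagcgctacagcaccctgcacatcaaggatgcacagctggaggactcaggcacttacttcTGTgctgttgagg
Trav12-3: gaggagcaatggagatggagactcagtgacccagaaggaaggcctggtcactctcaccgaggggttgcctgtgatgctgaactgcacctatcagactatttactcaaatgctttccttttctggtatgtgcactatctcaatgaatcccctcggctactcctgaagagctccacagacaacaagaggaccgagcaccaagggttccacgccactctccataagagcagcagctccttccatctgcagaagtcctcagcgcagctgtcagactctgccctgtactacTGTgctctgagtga
Trav13-1: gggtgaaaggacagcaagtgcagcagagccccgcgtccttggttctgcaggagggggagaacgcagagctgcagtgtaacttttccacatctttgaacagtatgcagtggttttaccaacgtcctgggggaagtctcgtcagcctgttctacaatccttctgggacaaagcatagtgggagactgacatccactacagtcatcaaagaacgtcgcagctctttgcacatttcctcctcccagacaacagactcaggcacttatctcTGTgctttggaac
Trav5-1: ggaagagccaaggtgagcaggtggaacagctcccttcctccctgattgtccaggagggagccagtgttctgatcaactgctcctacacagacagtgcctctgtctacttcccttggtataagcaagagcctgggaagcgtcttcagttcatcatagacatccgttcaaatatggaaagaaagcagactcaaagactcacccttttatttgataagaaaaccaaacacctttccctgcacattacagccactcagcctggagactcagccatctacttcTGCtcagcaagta
Trav14-2: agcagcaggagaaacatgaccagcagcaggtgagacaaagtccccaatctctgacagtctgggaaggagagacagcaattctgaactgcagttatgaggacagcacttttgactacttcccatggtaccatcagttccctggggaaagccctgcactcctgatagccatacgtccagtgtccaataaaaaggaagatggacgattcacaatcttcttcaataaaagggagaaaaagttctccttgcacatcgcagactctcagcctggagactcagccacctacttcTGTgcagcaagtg
Trav21-dv12: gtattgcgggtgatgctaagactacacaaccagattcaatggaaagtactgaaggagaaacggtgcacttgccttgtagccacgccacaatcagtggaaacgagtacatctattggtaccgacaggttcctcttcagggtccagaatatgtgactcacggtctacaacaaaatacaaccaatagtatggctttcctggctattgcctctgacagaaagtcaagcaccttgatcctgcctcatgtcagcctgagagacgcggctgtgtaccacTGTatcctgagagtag

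Some of these genes have relatives in the same family that were often found in the same cells, and their V exons are given for comparison. Trav13n-4 (chr14:53363828-53364106) is 279 bases long and differs from Trav13-1 at 25 of them, in capitals.
Trav13n-4: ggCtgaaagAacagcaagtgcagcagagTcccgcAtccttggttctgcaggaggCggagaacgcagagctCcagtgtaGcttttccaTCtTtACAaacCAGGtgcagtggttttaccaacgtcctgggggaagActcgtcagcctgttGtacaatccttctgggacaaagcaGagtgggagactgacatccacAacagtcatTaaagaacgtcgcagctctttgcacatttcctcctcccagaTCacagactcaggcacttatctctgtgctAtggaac
Trav16n (chr14:53351322-53351621) differs from Trav16d-dv11 by 3 substitutions and by 3 extra bases at its start, which are not shown, and Trav16 (chr14:53743406-53743705) by 5 substitutions. Capitals again mark the bases that differ from Trav16d-dv11.
Trav16n: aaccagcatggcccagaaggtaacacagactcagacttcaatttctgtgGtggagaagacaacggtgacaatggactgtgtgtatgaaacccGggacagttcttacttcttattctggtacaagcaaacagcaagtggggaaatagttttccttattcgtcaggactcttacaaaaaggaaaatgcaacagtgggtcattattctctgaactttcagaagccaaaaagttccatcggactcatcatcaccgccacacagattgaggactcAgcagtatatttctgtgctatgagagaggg
Trav16: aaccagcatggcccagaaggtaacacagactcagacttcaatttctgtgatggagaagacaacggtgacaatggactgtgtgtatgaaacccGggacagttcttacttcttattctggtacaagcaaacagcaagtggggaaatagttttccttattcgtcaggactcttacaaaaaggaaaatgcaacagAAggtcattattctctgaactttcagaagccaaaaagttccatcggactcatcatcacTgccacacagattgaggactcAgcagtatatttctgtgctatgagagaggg

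T cells were taken as barcodes with at least 1 unique molecular identifier (UMI) of Cd3d, Cd3e and Cd3g together, a minimum of 500 genes and no more than 10% of UMIs from mitochondrial genes. This left 2128 sensitive and 2079 resistant T cells, with medians of 4087 and 4781 UMIs. At least 1 Trav UMI was found in 1353 cells of the sensitive library, or 63.6% (95% exact interval, 61.5 to 65.6), and in 1448 cells of the resistant library, or 69.6% (67.6 to 71.6). With each cell thinned to 2000 UMIs the shares were 47.0% of 1895 cells and 47.5% of 1945 cells, a ratio of 0.99 (95% interval, 0.926 to 1.06), and 233 and 134 shallower cells were left out. In cells without Cd3 UMIs and with at least 5 collagen (Col1a1 and Col1a2) UMIs, which should lack Trav transcripts, the shares were 2 of 771 cells (0.259%) and 1 of 552 cells (0.181%), at medians of 13288 and 13878 UMIs. In cells with a Trac UMI a Trav UMI was found in 69.7% and 75.7%, and in T cells without one in 45.4% and 46.9%.

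The libraries shared 31 barcodes, 10 of them T cells in both. In both libraries T cells held UMIs of other cell types. At least 5 collagen UMIs were found in 84 sensitive and 107 resistant T cells. The 3 neutrophil markers S100a8, S100a9 and Csf3r were found in 2.73% and 8.51% of T cells, the 3 macrophage markers C1qa, Lyz2 and Cd68 in 8.27% and 14.2%, and the 3 B cell markers in 0.0940% and 0.0962%. Cd8a or Cd8b1 was found in 72.7% of sensitive and 88.4% of resistant T cells, and Cd4 in 16.4% and 7.84%. The part of these cells and transcripts in the usage differences below was not tested beyond the values given with CD8+ cells alone and, in the closing section, without T cells holding collagen or myeloid UMIs.

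Usage is the share of T cells with any Trav UMI in which a given gene had at least 1 UMI. The genes of the cluster were used very unevenly (plot of usage along the cluster). In the sensitive library 72 genes were seen in at least 1 T cell and 56 had 0 UMIs, and in the resistant library 66 were seen and 62 had 0. A gene at 0 that has sequence of its own may still be used at up to the share that 3 cells would give, 0.222% of the sensitive and 0.207% of the resistant cells with a Trav UMI, and for a gene without such sequence a 0 sets no limit.

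Trav16d-dv11 was the most used gene in both libraries. It was found in 212 cells of the sensitive library, or 15.7% (13.8 to 17.7), and in 245 resistant cells, or 16.9% (15.02 to 18.95), and the ratio of the shares was 0.93 (0.783 to 1.096). Its relative Trav16n was found in 65 cells (4.804%) and 66 cells (4.56%). Among the other leading genes, Trav7-1 (5.03% and 6.28%) and Trav9-1 (3.55% and 3.73%) also lay within 2-fold of each other in the libraries. The interval of each of these 4 ratios included 1. Trav6n-6 (7.17% and 3.73%, ratio 1.92, 1.39 to 2.66) and Trav4-4-dv10 (3.47% and 5.04%, ratio 0.69, 0.481 to 0.987) were also within 2-fold, but with intervals that left out 1.

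**Figure D1:**
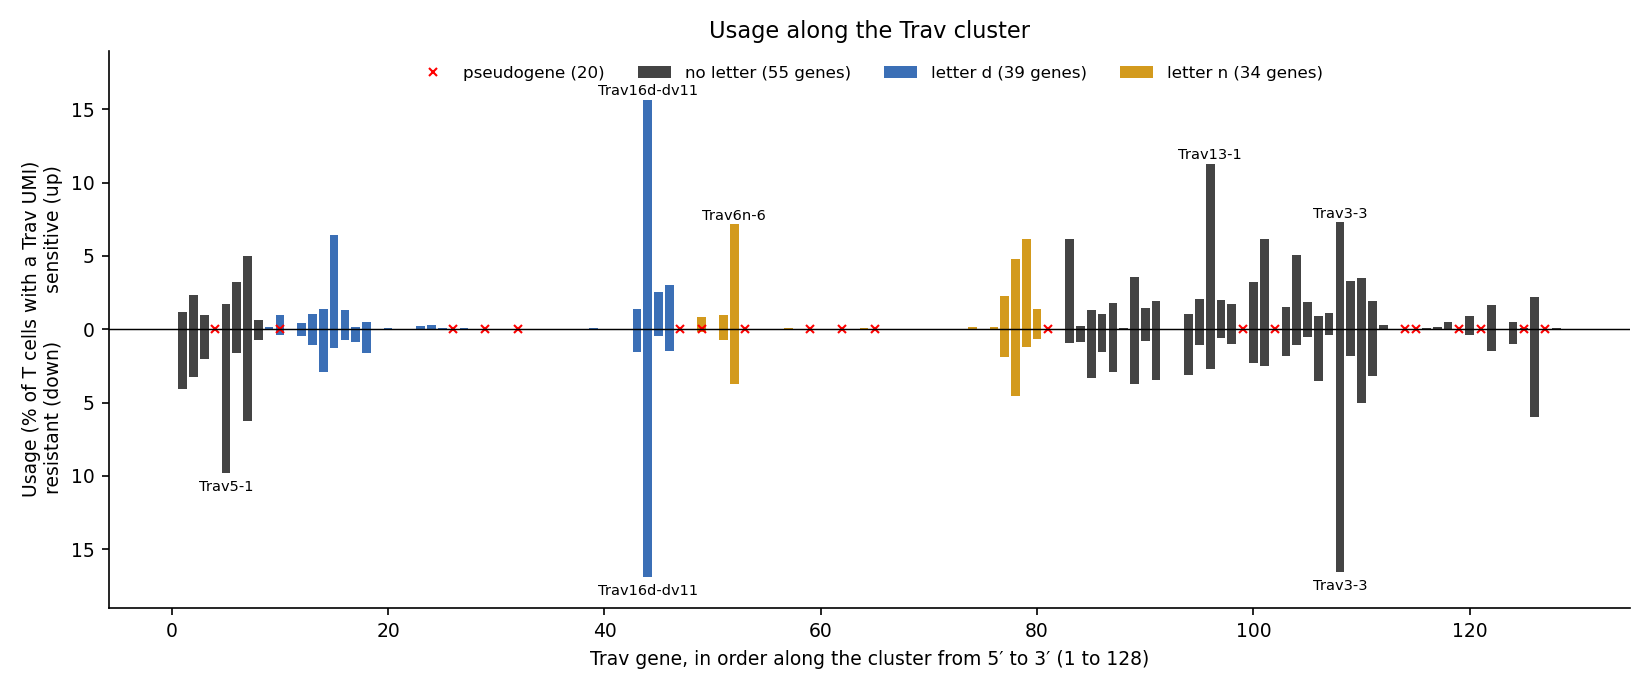
Usage of the 128 Trav genes in their order along the cluster, with the share of T cells with a Trav UMI upward for the sensitive and downward for the resistant library, in percent. Bars are colored by the letter in the gene's name and crosses mark the 20 pseudogenes; tall bars stand alone at Trav16d-dv11 in both directions, at Trav13-1 upward, and at Trav5-1 and Trav3-3 downward.

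Of the 53 genes found in at least 10 cells of 1 library, 16 had a usage at least 2-fold higher in the sensitive library (30.2%) and 13 at least 2-fold higher in the resistant library (24.5%), and 24 lay within 2-fold (plot of usage of the named genes). As shares of all T cells, a measure that any gene can be given, 12 Trav genes (22.6%) were at least 2-fold higher and 13 (24.5%) at least 2-fold lower in the sensitive library. Over all 13260 genes with at least 10 cells the same rule called 258 (1.95%) and 502 (3.79%), and over 19 Trbv genes 3 (15.8%) and 0. A gene could pass the limit of 10 cells through 1 library alone, as Trav13d-4 (34 sensitive and 7 resistant cells) and Trav10d (7 and 23) did. Passing that way favors a call, for Trav genes and for all genes alike. The part of such genes in these shares was not tested. The calls are by size, with no test, since each side is 1 library.

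**Figure D2:**
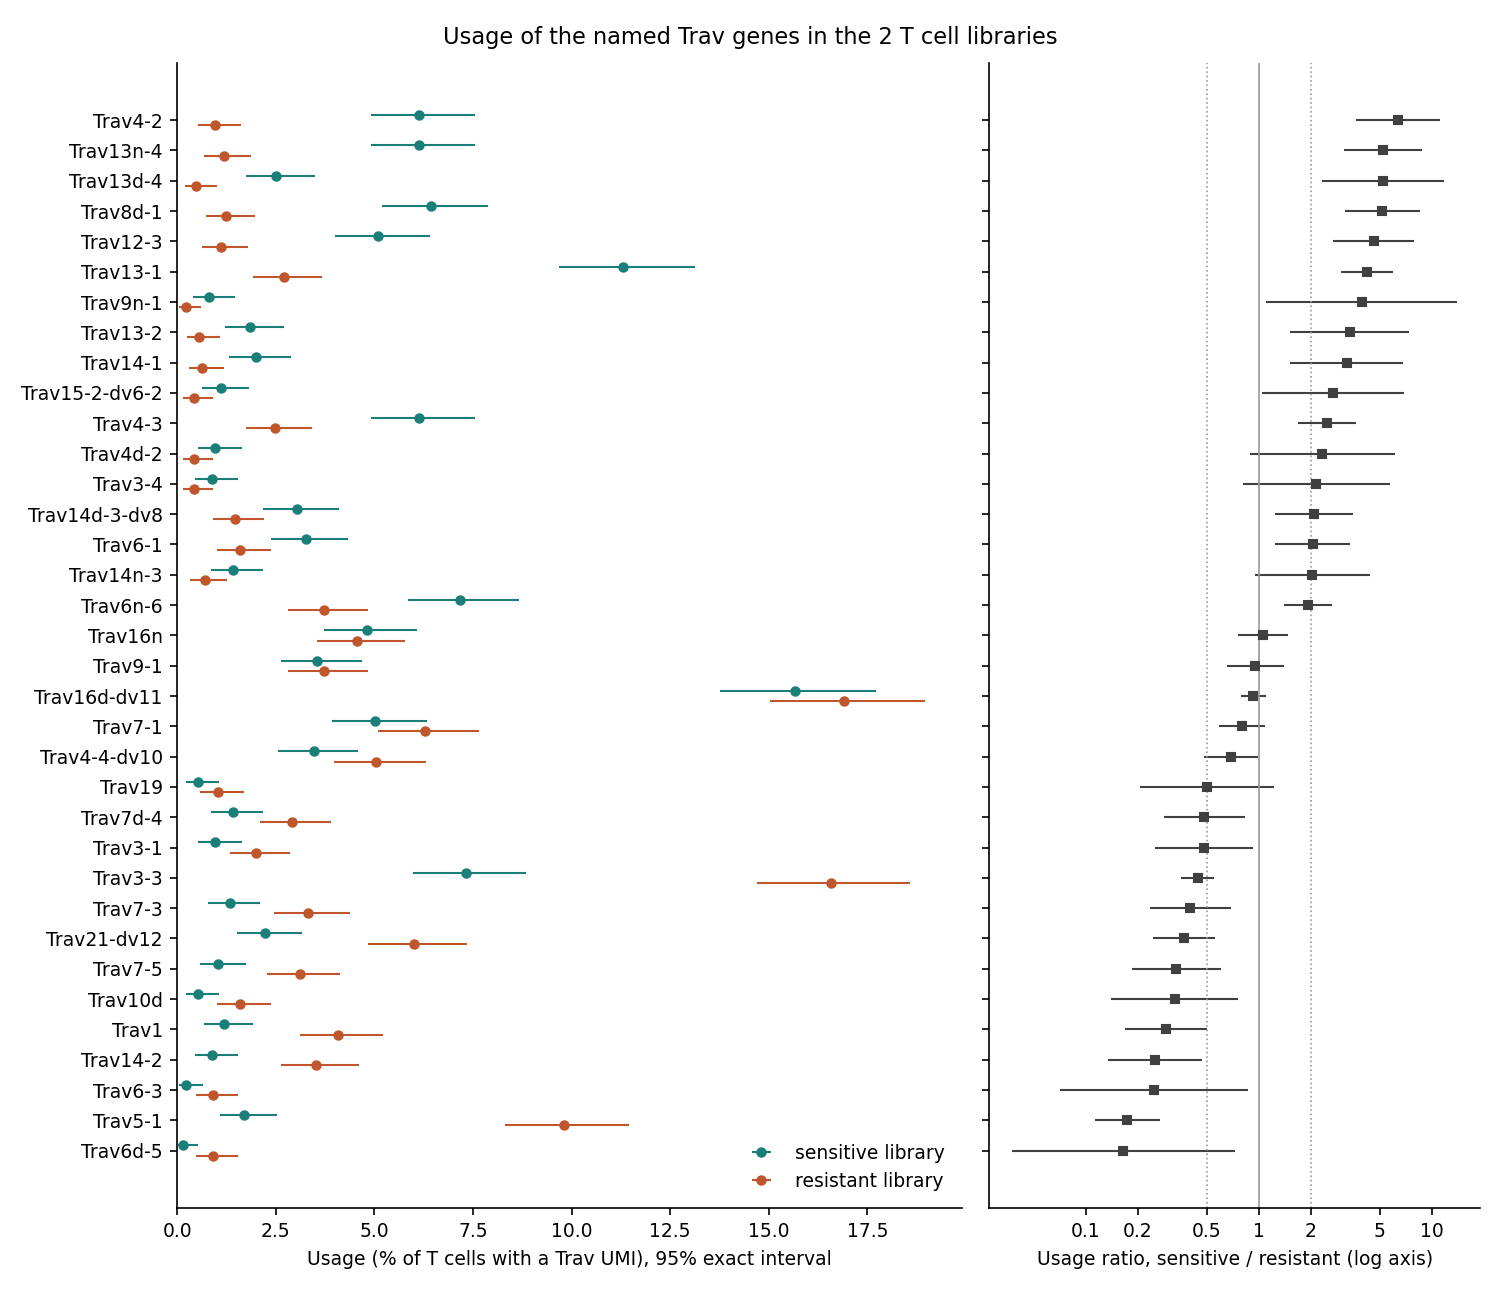
Usage of the 35 named Trav genes in percent of T cells with a Trav UMI (left, points with 95% exact intervals) and the ratio of sensitive to resistant usage on a log axis (right, squares with 95% intervals, dotted lines at 2-fold). The ratios run from 6.34 for Trav4-2 to 0.16 for Trav6d-5, and Trav16d-dv11 lies near 1.

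The genes most raised in the sensitive library were members of families 4, 8, 12 and 13, though not all members were: Trav4-4-dv10 (0.69), Trav12-2 (0.86) and Trav8d-2 (0.92) had ratios below 1. Trav13-1 was found in 153 sensitive cells (11.3%, 9.67 to 13.1) and 39 resistant cells (2.69%, 1.92 to 3.66), a ratio of 4.20 (2.98 to 5.92). Trav4-2 was found in 83 and 14 cells, 6.13% against 0.967%, a ratio of 6.34 (3.62 to 11.1). Trav8d-1 was found in 87 and 18 cells, 6.43% against 1.24%, a ratio of 5.17 (3.13 to 8.55). These 3 genes had intervals wholly above 2-fold. The same held for Trav13n-4, found in 83 and 17 cells with a ratio of 5.23 (3.12 to 8.76), for Trav13d-4, found in 34 and 7 cells with a ratio of 5.20 (2.31 to 11.7), and for Trav12-3, found in 69 and 16 cells with a ratio of 4.62 (2.69 to 7.91). Trav4-3 was found in 83 and 36 cells, a ratio of 2.47 (1.68 to 3.62). The other 9 genes called higher were found in 11 to 44 sensitive cells, with ratios from 2.03 (Trav14n-3) to 3.92 (Trav9n-1), and for Trav14n-3, Trav4d-2 and Trav3-4 the interval included 1. Trav4d-2 and Trav9n-1 are annotated as pseudogenes in the reference strain.

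Trav3-3 and Trav5-1 led among the genes used more in the resistant library. Trav3-3 was found in 240 resistant cells (16.6%, 14.7 to 18.6) and 99 sensitive cells (7.32%, 5.99 to 8.84), a ratio of 0.44 (0.354 to 0.551). Trav5-1 was found in 142 resistant cells (9.81%, 8.32 to 11.5) and 23 sensitive cells (1.70%, 1.08 to 2.54), a ratio of 0.17 (0.112 to 0.268). Trav14-2 was found in 51 and 12 cells, a ratio of 0.25 (0.135 to 0.470). The intervals of Trav5-1 and Trav14-2 lay wholly below 0.5. Trav21-dv12, in 87 and 30 cells, had a ratio of 0.37 (0.245 to 0.555), and Trav1, in 59 and 16 cells, 0.29 (0.168 to 0.502). The remaining 8 genes, among them Trav7-3, Trav7-5 and Trav10d, were found in 13 to 48 resistant cells with ratios from 0.16 (Trav6d-5) to 0.50 (Trav19), and the interval of Trav19 included 1.

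Transcript numbers showed the same directions for these leading genes. Trav3-3 had 841 UMIs in the resistant library and 274 in the sensitive one, Trav5-1 496 and 54, and Trav13-1 82 and 438. Within CD8+ cells, of which 945 sensitive and 1266 resistant ones had a Trav UMI, Trav5-1 was found in 1.16% and 10.8%, Trav3-3 in 6.24% and 16.7%, Trav13-1 in 13.1% and 2.29%, and Trav4-2 in 6.67% and 0.632%. The directions were those seen over all T cells. In CD8+ cells alone 10 genes were called higher in sensitive tumors and 17 in resistant tumors, against 16 and 13 over all T cells. No share over all genes is given within CD8+ cells, so whether this balance is particular to Trav genes was not tested.

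Evenness of usage was given as the effective number of copy groups, the number of equally used groups that would give the same chance of drawing 1 group from 2 cells, counted over cells with UMIs of exactly 1 copy group. It was 20.8 (95% interval, 18.6 to 23.4) in 867 sensitive cells and 16.1 (14.6 to 17.8) in 1007 resistant cells. Within CD8+ cells the values were 15.8 (13.7 to 18.6) and 14.99 (13.6 to 16.7), so the libraries differed by less than the counting intervals there. The Morisita overlap of copy group usage, which is about 1 for cells drawn from the same usage and 0 for no shared group, was 0.731 between the libraries over all T cells and 0.699 within CD8+ cells. These values describe 2 libraries and have no replicate behind them.

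**Figure D3:**
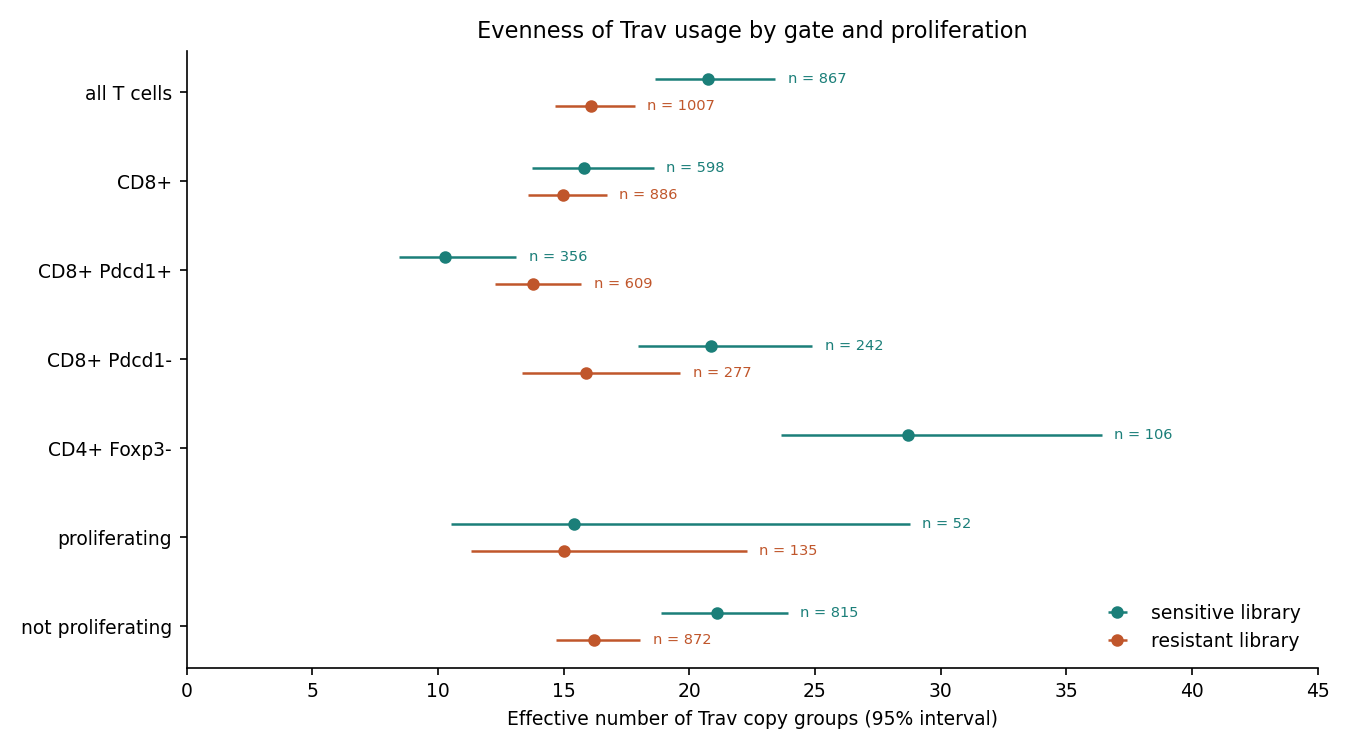
Effective number of Trav copy groups by gate in each library, with 95% intervals and the number of cells with exactly 1 copy group (n). Of the gates drawn, CD8+ Pdcd1+ cells of the sensitive library had the lowest value and CD4+ Foxp3- cells the highest; gates with few cells, among them Trdc+ cells, and the 20 resistant CD4+ Foxp3- cells with 1 copy group are not drawn.

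CD8+ cells were split by Pdcd1, which encodes the inhibitory receptor PD-1 that rises on stimulated T cells. In the sensitive library usage was less even in CD8+ Pdcd1+ cells, with an effective number of 10.3 (8.46 to 13.1), against 20.9 (17.98 to 24.9) in CD8+ Pdcd1- cells. In the resistant library the values were 13.8 (12.3 to 15.7) and 15.9 (13.3 to 19.6), and the intervals overlapped. The overlap of usage between Pdcd1+ and Pdcd1- cells was 0.601 for sensitive and 0.904 for resistant tumors.

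The Trav16 copy group, which in these data is almost wholly Trav16d-dv11 and Trav16n, was the most frequent copy group in the Pdcd1+ cells of both libraries. Among sensitive cells it was found in 28.8% of 586 CD8+ Pdcd1+ cells and in 7.80% of 359 CD8+ Pdcd1- cells, a ratio of 3.70 (2.53 to 5.39). Among resistant cells the shares were 22.7% of 906 and 12.8% of 360, a ratio of 1.78 (1.32 to 2.39). Of 25 copy groups with at least 10 cells in 1 of these sensitive gates, 5 were at least 2-fold higher in Pdcd1+ cells (20%) and 7 lower (28%). Trav4-3 (6.48% against 2.23%) and Trav8-2 (4.10% against 1.11%) were also higher, while Trav7-1 (2.56% against 9.19%), Trav12-3 (3.58% against 9.75%) and Trav9-2 (2.22% against 6.69%) were lower. For this split the share of cells thinned to 2000 UMIs, a measure that any gene can be given, was at least 2-fold higher in Pdcd1+ cells for 6 of 17 Trav genes (35.3%) and lower for 5 (29.4%) in the sensitive library, where all 8567 genes gave 5.47% and 2.54%. The resistant values were 8 (36.4%) and 4 (18.2%) of 22 Trav genes, and 5.33% and 2.22% of all 9189 genes. By usage, in the resistant library 9 of 32 groups were higher (28.1%), among them Trav14-2 (4.53% against 1.11%) and Trav7-5 (3.31% against 0.833%), and 4 lower (12.5%), among them Trav3-1 (0.773% against 4.44%) and Trav8-2 (1.55% against 6.11%). Trav3-3 and Trav5-1, which were used more in the resistant library than in the sensitive one, were found at like shares in its Pdcd1+ cells (16.2% and 11.04%) and its Pdcd1- cells (18.1% and 10.3%).

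CD4+ cells used the cluster more evenly. In 106 sensitive CD4+ Foxp3- cells the effective number was 28.7 (23.7 to 36.4), and no copy group held more than 7 of them. Of 31 copy groups, 8 were at least 2-fold higher in CD8+ cells (25.8%) and 5 lower (16.1%). The Trav16 copy group was found in 197 of 945 CD8+ cells (20.8%) and in 3 of 137 CD4+ Foxp3- cells (2.19%), a ratio of 9.52 (3.09 to 29.4). The Trav13-4 copy group was found in 9.74% and 1.46%, a ratio of 6.67 (1.66 to 26.8), and Trav4-2 in 66 cells and 1 cell, a ratio of 9.57 (1.34 to 68.4). Trav4-3 (4.87% against 10.9%), Trav4-4 (2.54% against 7.30%) and Trav9-4 (2.65% against 7.30%) were lower in CD8+ cells. On the share-of-cells scale 9 of 35 Trav genes were higher in CD8+ cells (25.7%) and 7 lower (20%), where all 11531 genes gave 5.74% and 6.83%. The resistant library held 49 CD4+ Foxp3- cells, 27 of them with a Trav UMI. Of 36 copy groups there 2 were higher in CD8+ cells (5.56%) and 11 lower (30.6%), each lower group resting on 1 to 4 CD4+ cells. Since 0 is read as 3 cells, a group absent from the 27 could be called higher only at a large CD8+ share. No share over all genes is given for this split, so its balance of calls cannot be read as a difference in usage. Trav16d-dv11 was in 0 of the 27.

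Proliferating cells, which had UMIs of at least 3 of 10 genes of DNA replication and mitosis such as Mki67 and Top2a, numbered 135 (sensitive) and 259 (resistant). The Morisita overlap between proliferating and other cells was 0.957 for sensitive and 0.987 for resistant tumors. Effective numbers were 15.4 (10.5 to 28.8) against 21.1 (18.9 to 23.9), and 15.02 (11.3 to 22.3) against 16.2 (14.7 to 18.1). Proliferating cells were deeper, with medians of 11501 and 10488 UMIs against 3941 and 4417, and a Trav UMI was found in 84.4% and 82.6% of them, against 62.2% and 67.8% of other T cells. Thinned to 2000 UMIs the shares were 50.7% and 50.8%, against 46.7% and 46.9%. The usage shares that follow were not thinned, and deeper cells can show more copy groups each.

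Of 37 copy groups with at least 10 cells in the sensitive library, 5 were at least 2-fold higher in proliferating cells (13.5%) and 4 lower (10.8%); the groups called lower had 1 proliferating cell each. Trav9-4 (9 of 114 proliferating cells, 7.89%, against 2.91%, ratio 2.72, 1.34 to 5.50) and Trav8-2 (9 cells, 7.89% against 3.07%, ratio 2.57, 1.28 to 5.19) had intervals above 1, as did Trav4-4 (2.23, 1.07 to 4.65). Intervals above 1 were also found for groups within 2-fold: Trav13-4 (ratio 1.76, 1.07 to 2.87), Trav13-1 (1.63, 1.06 to 2.51) and Trav16 (1.48, 1.04 to 2.11). Among CD8+ cells alone 4 of 30 groups were at least 2-fold higher (13.3%) and 3 lower (10%). No share over all genes is given for proliferation within CD8+ cells of either library, so these counts are a description only. The 4 were Trav8-2 (2.95, 1.23 to 7.06), Trav10 (2.70, 1.04 to 7.01), Trav6-6 (2.13, 1.197 to 3.78) and Trav4-4, which was in 4 of 80 proliferating cells and had an interval that included 1 (2.16, 0.758 to 6.17). Trav9-4 was within 2-fold there (3 of 80, ratio 1.47, 0.451 to 4.82). In the resistant library 1 of 36 was higher (2.78%) and 4 lower (11.1%). The CD8+ cells of that library gave 1 higher, 1 lower and 32 within 2-fold. Over all its T cells with a Trav UMI, Trav21 was found in 5 of 214 proliferating cells (2.34%) against 6.65% of the others, a ratio of 0.35 (0.144 to 0.857). In the sensitive library Trav21 lay the other way, with 5 of 114 (4.39%) against 2.02%, a ratio of 2.17 (0.848 to 5.57), and among CD8+ cells there the ratio was 0.72 (0.0965 to 5.39). The leading groups did not pass 2-fold: the Trav16 copy group was found in 23.7% of proliferating and 15.98% of other sensitive cells, and in 23.8% and 17.3% of resistant cells, and Trav3-3 in 21.96% and 15.6% of resistant cells. In cells with a single copy group, Trav16 was in 15.4% of proliferating and 13.99% of other sensitive cells, and in 17.04% and 12.8% of resistant cells. After thinning to 2000 UMIs, 6 of 34 Trav genes were higher in proliferating sensitive cells (17.6%) and 0 lower, beside 8.69% and 8.44% of all 10303 genes, and in the resistant library 2 of 30 were higher (6.67%) and 3 lower (10%), beside 7.04% and 9.71% of 10170.

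Genes that can join to delta segments were checked against Trdc, the delta constant gene. Of Cd4-negative cells with a Trdc UMI, 33 of 117 sensitive (28.2%) and 19 of 33 resistant cells (57.6%) also had a Trav UMI, a ratio of 0.49 (0.325 to 0.739), and thinned to 2000 UMIs the ratio was 0.55 (0.297 to 1.0001). Among those with a Trav UMI, a -dv gene was found in 25 of 33 cells of the sensitive library (75.8%, 57.7 to 88.9) and 13 of 19 of the resistant one (68.4%, 43.4 to 87.4). In CD8+ cells without Trdc the shares were 26.7% of 934 and 28.1% of 1257, and Trav16d-dv11 alone was in 19.8% and 18.5% of them. Of the cells with Trdc, 3 and 1 had Trav16d-dv11. The most frequent copy groups in the sensitive cells with Trdc were those of family 15, which carry dv6 names. Trav15-2 was found in 11 of the 33 sensitive cells with Trdc and 0 of 934 CD8+ cells without, a share at least 104-fold higher when 0 is read as 3 cells. Trav15-1 was found in 9 of the 33. Among the 19 resistant cells Trav21 was in 5 (26.3%), against 5.41% of CD8+ cells without Trdc, and Trav15-1 in 4. Trav15-2 was in 3 of the 17 that held a single copy group. Trdc itself was found in 5.87% of sensitive and 1.59% of resistant T cells, and Trav15-2-dv6-2, with 15 and 6 cells, differed in the same direction. In CD8+ cells alone its ratio was 0.67 (0.0608 to 7.38), against 2.68 (1.04 to 6.88) over all T cells.

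Few cells held the V and J genes of an invariant T cell receptor together, but the counts bear on this only in part. Trav11 with Traj18 marks CD1d-restricted NKT cells, and Trav1 with Traj33 marks MR1-restricted MAIT cells. Trav11d was found in 1 cell of the sensitive library, which also held Traj18, and Trav11 and Trav11n in 0 cells of either library. Of the 90-base words of Trav11d and Trav11, 0% and 0.394% are held by no other Trav gene. Their low counts therefore do not show low use. For Trav11n the share is 100%, but it is annotated as a pseudogene, so its 0 says nothing about functional receptors of this kind. Traj18 was found in 22 sensitive and 9 resistant T cells. Trav1 was found in 16 sensitive and 59 resistant cells, of which 1 and 0 had Traj33. Of the 59, 54 were CD8+, and 32 of the 53 with a Trbv UMI had Trbv19. Traj genes were found in only 20.3% and 12.7% of T cells, so a missing Traj UMI says little about a cell.

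Beta chain genes showed how the alpha genes were distributed over receptors. In cells with exactly 1 Trav copy group and exactly 1 Trbv gene, 503 from sensitive and 658 from resistant tumors, 196 and 192 pairs were seen (plot of Trav and Trbv pairs). The effective number of pairs was 72.1 (59.4 to 91.8) and 57.1 (48.7 to 69.2). The 10 most frequent pairs held 31.8% and 34.7% of these cells. The 10 leading sensitive pairs held 160 cells, and 26 cells had those pairs in the resistant library. The 10 leading resistant pairs held 228 cells, and 14 cells had those in the sensitive one. Pairs picked as most frequent in 1 library are bound to be high there, so these counts are a description and do not measure a difference.

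**Figure D4:**
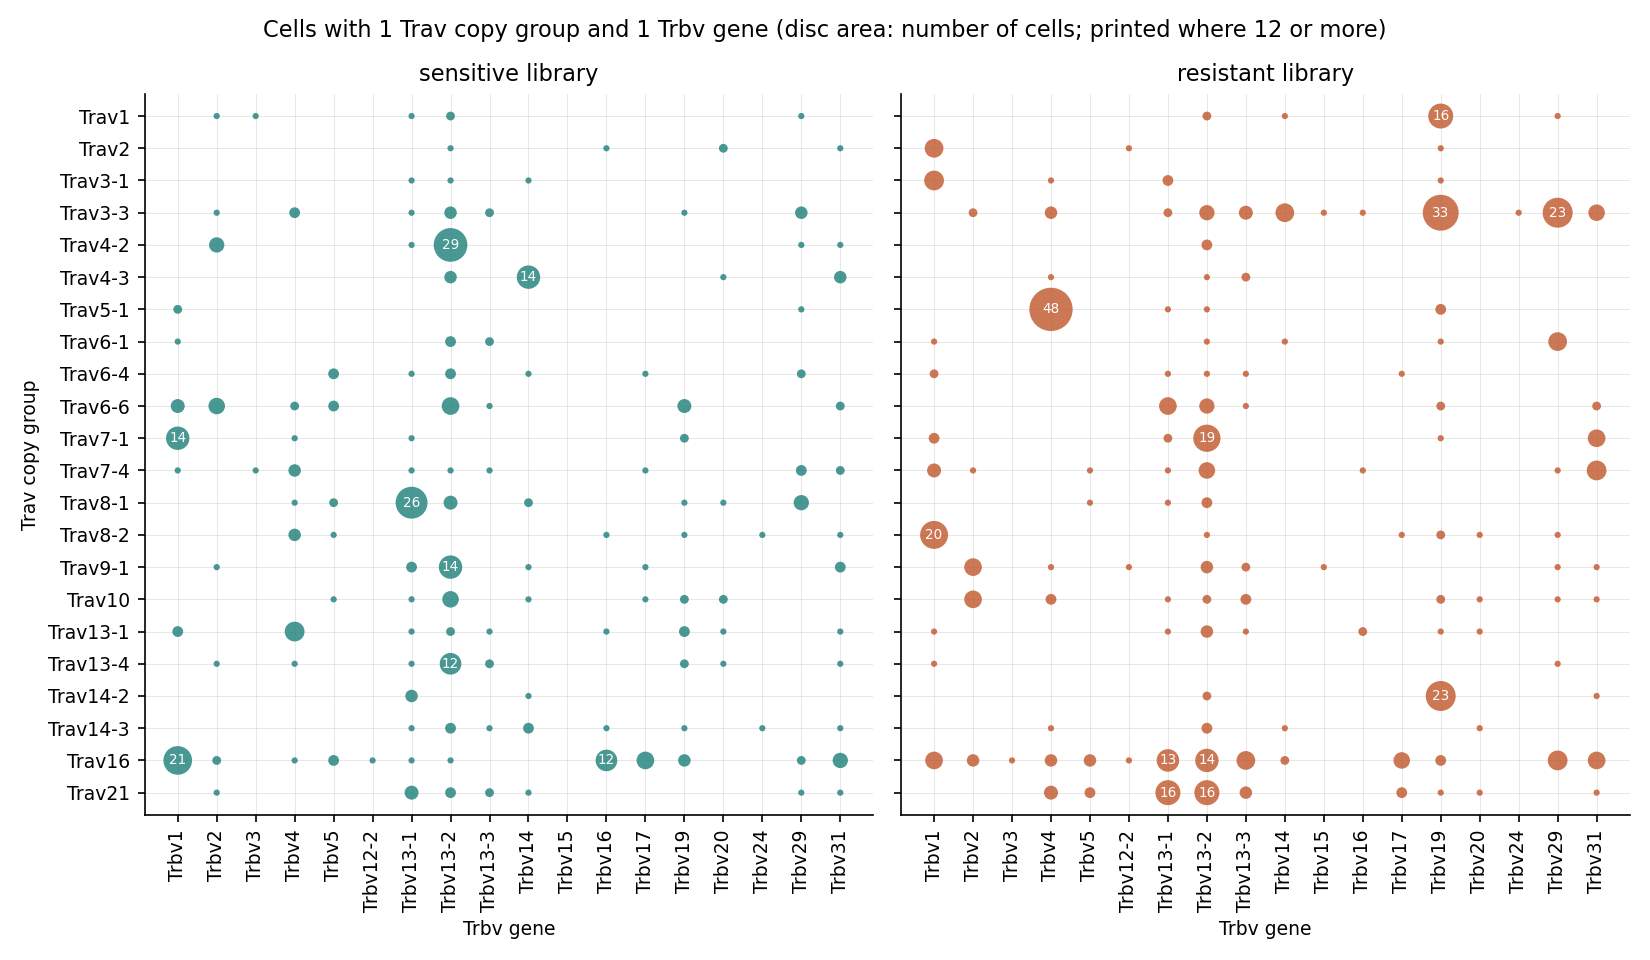
Number of cells with 1 Trav copy group (rows) and 1 Trbv gene (columns) in the sensitive (left) and resistant (right) library, for the 22 copy groups and 18 Trbv genes with most cells. Disc area is proportional to cells, printed from 12 up; Trav5-1 with Trbv4 held 48 cells in the resistant library and 0 in the sensitive one, and Trav4-2 with Trbv13-2 held 29 and 3.

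In the resistant library the largest pair was Trav5-1 with Trbv4, in 48 cells. These were 90.6% of the 53 Trav5-1 cells that held 1 copy group and 1 Trbv gene, 47 of the 48 were CD8+ and 37 were CD8+ Pdcd1+. Over all 99 Trav5-1 cells with a Trbv UMI, whatever else they held, Trbv4 was in 69 (69.7%, 59.6 to 78.5). The pair was in 0 of the 503 sensitive cells. Trav14-2 with Trbv19 held 23 of the 26 Trav14-2 cells, 21 of them CD8+ Pdcd1+, and 0 sensitive cells. Trav3-3 was split between Trbv19 (33 cells) and Trbv29 (23 cells), which gave 34.7% and 24.2% of its 95 cells. Trav8-2 with Trbv1 (20 cells, 5 of them CD8+ Pdcd1+) and Trav1 with Trbv19 (16 cells) were also in 0 sensitive cells. Trav7-1 with Trbv13-2 held 19 cells, 16 of them CD8+ Pdcd1+, and Trav21 was in 16 cells each with Trbv13-1 and with Trbv13-2.

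In the sensitive library the largest pair was Trav4-2 with Trbv13-2, in 29 cells, 76.3% of the 38 Trav4-2 cells, 21 of them CD8+ Pdcd1+. Trav8-1 with Trbv13-1 followed with 26 cells, 25 of them CD8+ but 5 CD8+ Pdcd1+. The Trav16 copy group was spread over Trbv1 (21 cells), Trbv16 (12) and Trbv17 (8), with 17, 11 and 7 of them CD8+ Pdcd1+. Trav4-3 with Trbv14 held 14 cells, all CD8+ and 12 Pdcd1+, and 0 resistant cells. Trav7-1 with Trbv1 also held 14 cells, all CD8+, and 0 of them had Pdcd1. Trav13-4 with Trbv13-2 held 12 CD8+ cells, of which 1 had Pdcd1, and Trav13-1 with Trbv4 held 10, of which 9 were CD8+ Pdcd1+. Only 46 of the 153 sensitive cells of the Trav13-1 copy group held no other group, so most were left out of the pairs. Over all 112 Trav13-1 cells with a Trbv UMI, whatever else they held, Trbv4 was in 48 (42.9%, 33.5 to 52.6).

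Over all cells with a Trbv UMI, whatever else they held, a single Trbv gene was in at least 50% of the cells of 18 of 48 Trav genes in the sensitive and 21 of 46 in the resistant library. For 11 and 7 of these genes that partner was Trbv13-2, which was also in 27.8% to 30.9% (sensitive) and 25.7% to 26.7% (resistant) of the cells with other Trav genes. For Trav14-2 in the resistant library it was Trbv19 in 40 of 46 cells (87.0%, 73.7 to 95.1), where 14.3% of cells with other Trav genes had Trbv19. For Trav8n-2 it was Trbv1 in 22 of 27 cells (81.5%, against 8.18% of cells with other Trav genes), for Trav6-1 Trbv29 in 18 of 23 (78.3%, against 7.24%), and for Trav7-4 Trbv31 in 21 of 27 (77.8%, against 7.68%). In the sensitive library Trav4d-2 had Trbv13-2 in 12 of 12 cells (against 30.4%), Trav4-2 in 58 of 79 (73.4%, against 27.8%), and Trav13n-4 had Trbv4 in 37 of 53 (69.8%), where 4.81% of the cells with other Trav genes had Trbv4. Trbv14 in the sensitive library went with Trav4-3, found in 44 of its 110 cells, and in the resistant library with Trav5-4, found in 23 of its 76.

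More than 1 copy group was found in 486 sensitive cells (35.9% of those with a Trav UMI) and 441 resistant cells (30.5%). More than 1 Trbv gene was found in 28.5% and 25.4% of cells with a Trbv UMI. Cells with 2 or more copy groups were deeper, with medians of 5522 and 6450 UMIs against 4209 and 4887 in cells with 1. When the barcodes with the highest doublet scores were left out (112 and 159, of which 69 and 114 were T cells), the shares were 35.8% and 29.9%. Of the cells with at least 2 Trav genes, 532 and 487, the genes shared a copy group in 8.65% and 9.45%, a family but no copy group in 15.6% and 9.03%, and belonged to different families in 75.8% and 81.5%.

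The combinations differed in how far they went with a single beta gene. In the sensitive library Trav13-1 and Trav12-3 were found together in 29 cells, and all 29 had Trbv13-3 and were CD8+, with 10 of them Pdcd1+. Their V exons belong to different families and differ by 136 substitutions when aligned end to end. Trav2 and Trav9-4 were found together in 10 cells, all with Trbv1, and Trav8d-1 and Trav4-2 in 12, of which 11 had Trbv13-2. Trav16d-dv11 and Trav6-4 were together in 10 resistant cells, all with Trbv13-3. Trav5-1 and Trav3-3 were together in 11 cells, of which 10 had Trbv19, and Trav5-1 and Trav9-2 in 17, of which 12 had Trbv4. Trav16d-dv11 and Trav4-4-dv10 were together in 40 cells, 54.8% of those with Trav4-4-dv10, and 18 had Trbv4 (45%). Other combinations were spread over more beta genes. The most frequent one was Trbv4 in 9 of the 26 resistant cells with Trav16d-dv11 and Trav3-3 (34.6%), Trbv5 in 3 of the 17 with Trav7-4 and Trav4-3 (17.6%), and Trbv14 in 3 of the 11 sensitive cells with Trav7-1 and Trav16d-dv11 (27.3%). A cell with rearrangements on both chromosomes, barcodes that hold 2 cells and stray RNA cannot be told apart from these counts.

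Other combinations were between close relatives. Trav13n-4 was found in 83 sensitive cells, and Trav13-1 was in 63 of them (75.9%), of which 35 had Trbv4. The V exons printed above differ at 25 of 279 bases, and every 90-base word of Trav13n-4 is its own. Trav16n was found with Trav16d-dv11 in 52 of its 65 cells in sensitive tumors (80%) and 46 of 66 in resistant tumors (69.7%). Trav4d-2 was with Trav4-2 in 10 of 13 sensitive cells, all with Trbv13-2, Trav10d with Trav10 in 17 of 23 resistant cells, and Trav7-3 with Trav7-1 in 31 of 48 resistant cells. Reads of 1 gene assigned to both members of such a pair were not tested for.

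Copies differed in how much sequence they share, and the genes were grouped by it. V exons of 1 copy group were identical to each other in a median of 97.9% of bases (87.4 to 100 over 83 pairs), and 17 pairs were the same throughout, such as Trav12d-1 and Trav12n-1 or Trav9d-2 and Trav9n-2. Exons of 1 family but different groups had a median of 86.7%. A read that fits more than 1 gene equally well is not counted by Cell Ranger. Of the 108 functional genes, 74 had at least 1 stretch of 90 bases that no other Trav gene holds. Of these, 63 were seen in at least 1 library and 51 in at least 10 cells of 1 library. Of the 34 without such a stretch, 10 were seen, in 16 cells in all, and none in 10. Among pseudogenes, 3 of 16 with a stretch of their own were seen (Trav4d-2, Trav9n-1 and Trav20), in 35 cells, and 0 of 4 without. Genes with the letter d or n had medians of 0.403% and 1.14% of such stretches against 90.3% for genes without a letter, and they held 24.1% and 10.6% of the Trav UMIs of the sensitive library and 17.1% and 6.10% of the resistant one. A count of 0 for a gene without sequence of its own does not show that it was unused.

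Of 14 genes of the receptor complex and its assembly, 10 were found in at least 10 cells of 1 library. Cd3d, Cd3e and Cd3g are among the 10 and also defined the T cells, so they could hardly be called (ratios 0.988, 0.993 and 0.987). Trac was found in 74.7% of sensitive and 78.9% of resistant T cells, Trbc1 in 36.7% and 42.8%, Trbc2 in 62.9% and 66.4%, and Cd247, the zeta chain of the signaling complex, in 50.8% and 44.5%. Of the 10, Trdc (ratio 3.70, 2.53 to 5.40) and Zbtb16, a transcription factor of innate-like T cells (3.34% against 1.59%, ratio 2.10, 1.40 to 3.16), were at least 2-fold higher in the sensitive library, and 0 were 2-fold higher in the resistant one, beside 1.95% and 3.79% of all genes on the same scale. The recombination genes Rag1, Rag2 and Dntt had 0 UMIs in T cells of both libraries, and Ptcra, the pre-T alpha chain, had 1 cell in the sensitive library.

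The 3 whole-tumor libraries were made with another Cell Ranger release and listed 130 Trav features. They held too few barcodes with a Trav UMI for a comparison of usage. Barcodes with a Cd3 UMI numbered 89 (control), 8 (sensitive) and 19 (titled resistant), at medians of 1553, 3216.5 and 2558 UMIs. Of these, 6.74%, 0% and 0% had a Trav UMI, against 47.0% and 47.5% of thinned T cells in the sensitive and resistant T cell libraries. Why the shares were lower was not tested. A Trav UMI was found in 6 of 501 barcodes from saline-treated control tumors, all 6 among the 89 with a Cd3 UMI, in 0 of 278 barcodes from sensitive tumors (exact upper bound 1.32%) and in 1 of 275 from the library titled resistant, whose source field names a sensitive tumor.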

How the data were processed

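T cells of DOX-treated sensitive and resistant 4T1 tumors were profiled by droplet 3′ single-cell RNA-seq, 1 library per group. The deposited values are unnormalized UMI counts per gene and barcode, which the authors made with Cell Ranger 6.0.0 for the T cell libraries and 3.0.1 for the whole tumors, on mm10. The T cell libraries held 3949 sensitive and 6116 resistant barcodes and 31690845 and 35908799 UMIs. Barcodes with at least 500 genes, at most 10% mitochondrial UMIs and at least 1 Cd3d, Cd3e or Cd3g UMI were kept. Doublets were kept and were left out in an alternative (scanpy 1.11.5, Scrublet scores). Gates were set by UMIs of the genes named with each: CD8+ cells had Cd8a or Cd8b1 and no Cd4, and CD4+ cells the reverse. A further split of CD8+ cells planned in the design is not reported here, and CD8+ Pdcd1+ cells were set against all CD8+ Pdcd1- cells, a grouping chosen after the data were seen.

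Shares have exact (Clopper-Pearson) 95% intervals and ratios a log-scale interval, for counting error only. With 1 library per group no test was run, and a ratio of 2 or 0.5 with at least 10 cells in 1 library was called. The rule named the 10 most used genes of each library, every called gene, the invariant and -dv genes and the 10 leading Trbv pairs of each library. Trav genes named otherwise, for their gate, partner or co-detection, were chosen after their values were seen. The members and lists were chosen with earlier results of these data known. V exon sequences came from GENCODE M21. Methods were tested on simulated data. Alternatives changed the filters, gate, thinning, detection limit and unit of usage.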

Additional observations from a re-analysis of the deposited data

How the results depend on the processing

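No paired analysis was possible because each group had 1 library. The ratio of T cells with a Trav UMI (0.99) was 1.08 with a gene counted only from 2 UMIs, and 0.91 without thinning, and stayed between 0.949 and 1.05 under the other settings. The effective number of copy groups (20.8 sensitive, 16.1 resistant) was 17.3 and 12.7 from 2 UMIs, 15.8 in the sensitive library with CD8+ cells only, 24.9 there with single genes, and 10.8 and 11.2 with families. With CD8+ cells only, 10 genes were called higher in the sensitive library, with no share over all genes to set beside them. The cause was not tested. Of the named genes, 2 turned direction: Trav15-2-dv6-2 with CD8+ cells only (0.67) and Trav14n-3 when each cell was given its gene with most UMIs (0.44). Of 29 called genes, 8 higher in the sensitive library and 8 higher in the resistant library were past 2-fold under all 15 settings, among them Trav4-2, Trav8d-1, Trav13-1 and Trav12-3, and Trav3-3, Trav5-1, Trav14-2 and Trav21-dv12. Leaving out T cells with collagen UMIs, with myeloid (Lyz2, S100a8 or S100a9) UMIs, or with barcodes in both libraries, 3 alternatives chosen after seeing the data, moved none of the 35 named genes beyond its interval. Rare genes are limited by cell number: at 10 cells an interval spans several fold.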
